A study of Mus musculus with 32 samples.

Results

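Kupffer cells, the macrophages that reside in the liver, were followed in whole-liver RNA through 10 genes, Clec4f, Vsig4, Timd4, Marco, Cd163, Cd5l, Folr2, Adgre1, Csf1r and Cd68. The members were chosen by symbol, as the rows with these names in the female and the male table of raw read counts, and make up 10 of 41585 genes listed. All 10 passed the filter on low counts in both tables. Livers came from C57BL/6 mice that were wildtype (WT) or lacked Cyp2b9, Cyp2b10 and Cyp2b13 (Cyp2b-null, a line made with CRISPR/Cas9 on the same strain). From 10 weeks of age, females and males received either normal chow (ND) or CDAHFD for 8 weeks. CDAHFD is an L-amino acid-defined diet without choline, with 62% fat and 0.1% methionine, that is used to bring on fatty liver with inflammation and fibrosis. Diet, genotype and sex gave 8 groups of 4 libraries each. WT mice were purchased and the Cyp2b-null mice came from the investigators' line, so genotype and colony cannot be told apart.

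Kupffer cells line the liver sinusoids, where they take up microbes, dying cells, haemoglobin and modified lipoproteins from portal blood. Most are seeded before birth and renew themselves in place, and their survival depends on CSF1R signalling. In dietary steatohepatitis, mouse Kupffer cells are known to die and monocyte-derived macrophages to enter the liver, where the newcomers share general macrophage genes with the resident cells but take on resident markers slowly, Timd4 latest of all. Clec4f, Vsig4, Timd4, Marco, Cd163, Cd5l and Folr2 are markers of the resident cells, and Adgre1, Csf1r and Cd68 are carried by macrophages in general.

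The 32 libraries held between 2906411 and 10166959 counts in genes. Counts of the targeted genes matched the labels in females, in which Cyp2b9 had 683 to 3530 counts in WT and 2 to 8 counts in Cyp2b-null libraries. In males, Cyp2b10 had 33 to 97 counts in ND-fed WT and 1 to 9 in ND-fed Cyp2b-null libraries, and Cyp2b9 had 118 to 364 counts in CDAHFD-fed WT and 2 to 7 in CDAHFD-fed Cyp2b-null libraries. Xist and Ddx3y matched the labelled sex in all 32. Replicate 1 of the CDAHFD-fed WT group lay nearest to the ND-fed libraries in each sex along the leading principal component, so results that rest on it are given with and without it. As in liver generally, hepatocyte genes dominated: the summed level of Alb, Apoa1, Cps1, Serpina1c and Ttr ranged from 52569 to 185790 CPM, the counts of a gene per 1e+06 counts of its library. CPM were scaled by TMM, a correction for library composition, over all 32 libraries. No source says more about the replicates than that they are separate samples, so p-values measure the spread between these samples. Females and males were deposited in separate tables, and whether they were prepared together is not given in the sources used here.

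On ND, the secreted protein gene Cd5l and the lectin gene Clec4f had the highest levels per kb of exon, and the phagocytic receptor gene Timd4 was among the lowest. In ND-fed WT females, Cd5l stood at 67.6 ± 21.2 CPM per kb (mean ± SD, n = 4) and Clec4f at 64.0 ± 10.4, and these neighbours in the order differed by less than their spread. Vsig4 followed at 27.6 ± 6.01 CPM per kb. Below it, Csf1r (11.8 ± 3.42), Folr2 (10.4 ± 2.22), Adgre1 (7.77 ± 1.53), Cd68 (7.33 ± 1.89), Marco (6.40 ± 2.87), Cd163 (5.80 ± 2.21) and Timd4 (4.38 ± 0.847 CPM per kb) followed in that order. Csf1r and Folr2 differed by less than their SDs, as did each pair of neighbours from Adgre1 to Cd163, whereas the mean of Folr2 was above every Adgre1 library (at most 9.44 CPM per kb). Cd163 and Timd4 differed by less than the SD of Cd163. Their libraries overlapped, at 4.43 to 9.09 against 3.17 to 5.11 CPM per kb, with replicate 2 the highest for Cd163. In ND-fed WT males, Cd5l (32.9 ± 11.8 CPM per kb) and Clec4f (31.7 ± 10.3) again led, and Marco was lowest at 1.03 ± 0.505 CPM per kb. After CDAHFD, Cd68 took the place behind Cd5l in WT males at 48.1 ± 15.1 CPM per kb, and Cd163 (0.456 ± 0.406) and Timd4 (0.455 ± 0.219) were at the bottom.

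Upstream sequence is shown for the 4 members whose changes the results turn on: Timd4 and Cd163, which fell on CDAHFD in both sexes, Cd68, which rose most, and Marco, whose change differed between the sexes. Each line is the 250 bases before the RefSeq start on GRCm38.p6, read 5′ to 3′ on the gene's strand, in lower case with GAGGAA in capitals. These lie at chr11:46810549-46810798 (plus strand) for Timd4, chr6:124304401-124304650 (plus) for Cd163, chr1:120505025-120505274 (minus) for Marco and chr11:69666171-69666420 (minus) for Cd68. A stretch just after the start was found in GENCODE transcripts of the same gene for Timd4, Cd163 and Marco. For Cd68 it was not found, so the start and reading direction of that window rest on RefSeq alone. GAGGAA is the core of the site bound by PU.1, the macrophage lineage factor encoded by Spi1.
Timd4: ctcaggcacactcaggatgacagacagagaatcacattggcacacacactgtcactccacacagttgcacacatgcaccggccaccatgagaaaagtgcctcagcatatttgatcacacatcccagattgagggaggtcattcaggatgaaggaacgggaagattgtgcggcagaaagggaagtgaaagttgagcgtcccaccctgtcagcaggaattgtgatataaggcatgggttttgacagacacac
Cd163: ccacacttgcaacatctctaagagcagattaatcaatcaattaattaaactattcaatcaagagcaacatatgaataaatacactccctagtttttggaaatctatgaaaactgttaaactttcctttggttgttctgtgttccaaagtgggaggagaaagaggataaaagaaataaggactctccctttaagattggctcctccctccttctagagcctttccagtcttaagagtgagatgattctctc
Marco: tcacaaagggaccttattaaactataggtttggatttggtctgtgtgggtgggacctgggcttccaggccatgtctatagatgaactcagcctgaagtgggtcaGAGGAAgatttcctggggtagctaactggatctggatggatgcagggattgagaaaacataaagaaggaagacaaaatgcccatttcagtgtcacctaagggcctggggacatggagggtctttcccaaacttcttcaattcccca
Cd68: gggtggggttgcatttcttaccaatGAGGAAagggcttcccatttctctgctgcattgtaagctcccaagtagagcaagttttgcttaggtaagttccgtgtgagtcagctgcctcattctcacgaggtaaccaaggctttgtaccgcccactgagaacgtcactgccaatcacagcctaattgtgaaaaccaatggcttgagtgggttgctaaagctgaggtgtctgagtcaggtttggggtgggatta
The longer form GAGGAAGT was searched on both strands and was in 0 of 9 windows of the 8 members that have a window here, against 2.44% of 32851 windows of all genes. The shorter GAGGAA, which lies inside it and was added after the data were seen, was in 4 of the 9 windows, those of Marco (146 bases before the start), Cd68 (225 bases), Vsig4 (155 and 53 bases) and Cd5l (66 bases, opposite strand), against 23.3% of all windows. A match is only a run of letters in this window, and the Timd4 and Cd163 windows shown hold none.

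By RefSeq positions on GRCm38.p6, Marco spans 120474538 to 120505024 on chromosome 1 and Cd5l 87357881 to 87371074 on chromosome 3. Chromosome 6 carries Clec4f at 83644542 to 83656116 and Cd163 at 124304636 to 124330529. Folr2 lies at 101839988 to 101857190 on chromosome 7, while chromosome 11 holds Timd4 at 46810786 to 46844333 and Cd68 at 69664213 to 69666170. Adgre1 spans 57358581 to 57483529 on chromosome 17, Csf1r 61105572 to 61131139 on chromosome 18, and Vsig4 96247201 to 96293438 on the X chromosome. The upstream windows of Timd4 and Cd163 shown above end slightly inside these spans, at 46810798 and 124304650. In GENCODE gene models, Folr2 overlaps the antisense gene Gm10602 over 2784 bases and Csf1r overlaps Hmgxb3 on the other strand over 873 bases. The strand setting of the counting is not given in the sources used here, so reads of these overlapping stretches cannot be told apart.

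To ask what the diet did to the marker set, CDAHFD-fed libraries were compared with ND-fed libraries within each genotype and sex. Members moved in opposite directions. Timd4 and Cd163 fell and Cd68, Adgre1, Csf1r and Cd5l rose in all 4 comparisons. Clec4f and Folr2 passed the main test in none, though some alternative fits called them in part of the comparisons. Vsig4 fell in WT females and rose in males, and Marco rose in males. In WT females 4 members rose and 3 fell, where 13.9% of all 13226 genes tested rose and 10.2% fell. In Cyp2b-null females 4 rose and 2 fell (16.9% and 13.9% of all genes). In males 6 rose and 2 fell in each genotype, against 18% higher and 15% lower of 13460 genes in WT and 20.3% and 17.1% in Cyp2b-null. The median log2 fold change over the 10 members was -0.13 in WT females, 0.23 in Cyp2b-null females, 1.21 in WT males and 1.37 in Cyp2b-null males, where that over all genes tested lay between -0.02 and 0.03. Calls are edgeR quasi-likelihood tests with Benjamini-Hochberg adjustment over all genes and an adjusted p under 0.05. In RNA from whole liver, fewer cells of a type and less RNA per cell cannot be told apart.

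**Figure D1:**
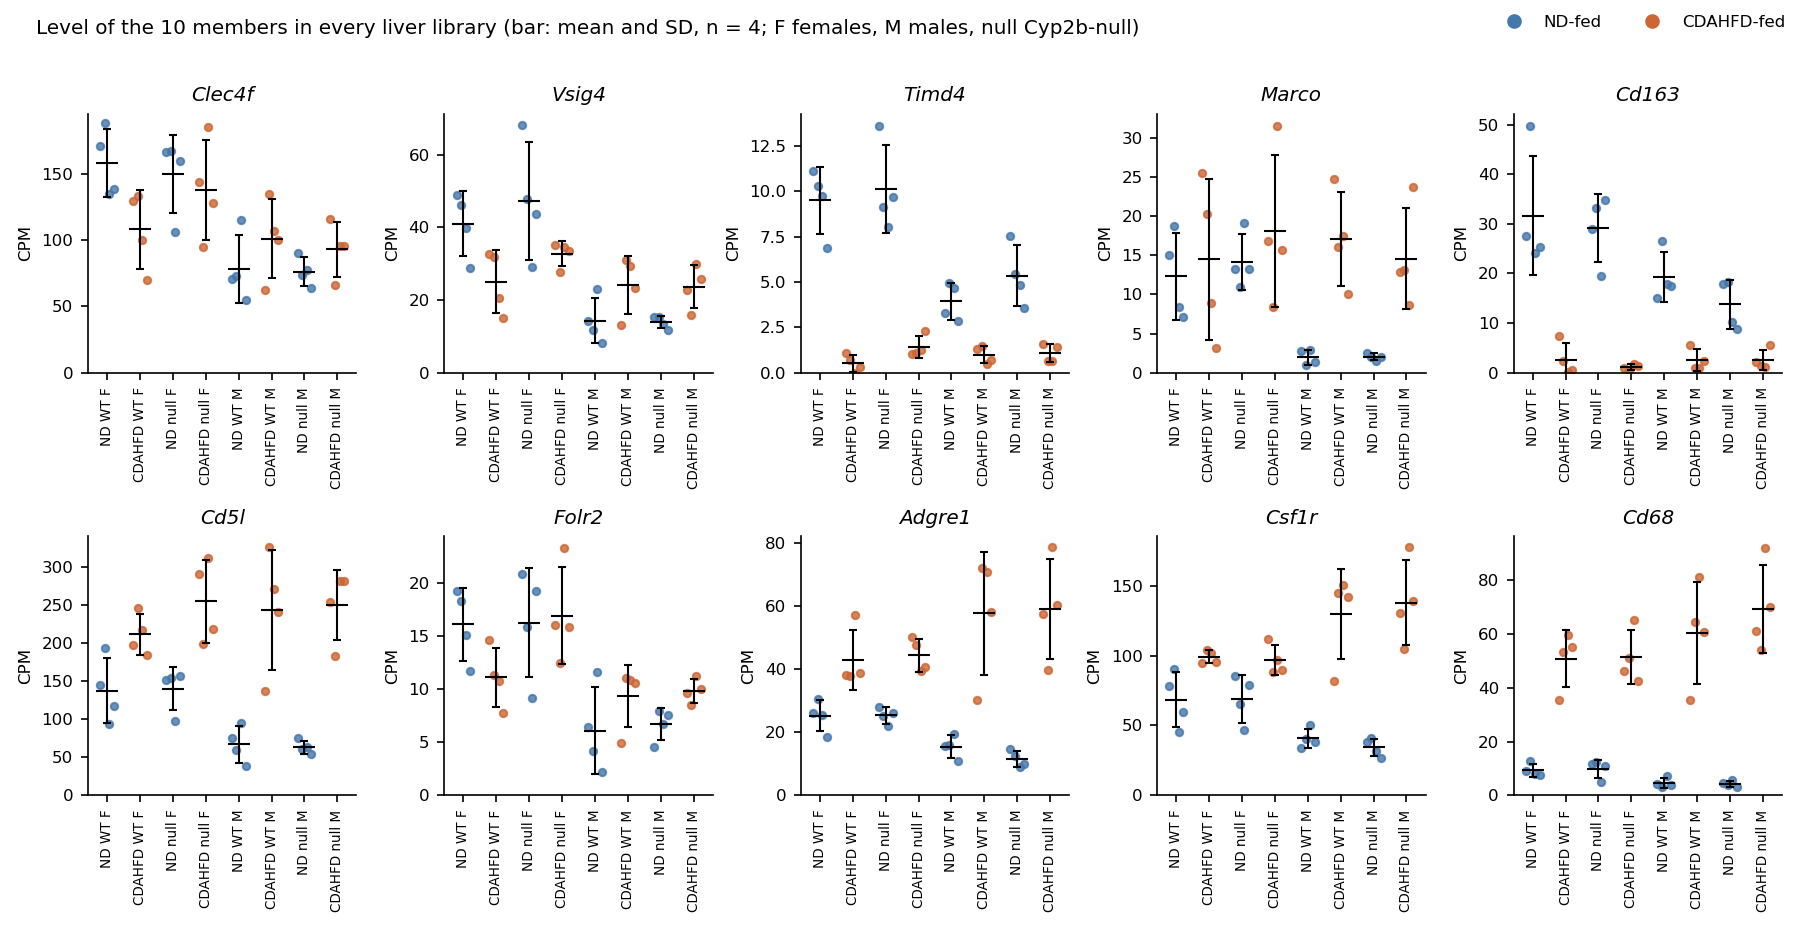
Level of each member in every library, in CPM (1 panel a gene, each with its own axis from 0), by diet, genotype and sex. Points are libraries (blue ND, orange CDAHFD) and bars are the mean and SD of 4 libraries. Timd4 and Cd163 drop on CDAHFD in both sexes and genotypes, while Cd68 climbs from at most 12.6 CPM on ND to at least 35.4 CPM on CDAHFD.

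Timd4 encodes a phosphatidylserine receptor for dying cells and marks long-lived resident macrophages. Its level in ND-fed WT females was 11.1, 10.3, 9.74 and 6.88 CPM, and in CDAHFD-fed WT females 1.09, 0.706, 0 and 0.312 CPM, from 5, 3, 0 and 2 counts. ND-fed Cyp2b-null females had 13.6, 9.11, 8.05 and 9.69 CPM and CDAHFD-fed Cyp2b-null females 1.003, 1.11, 1.25 and 2.29 CPM. In both genotypes every CDAHFD library was below every ND library, and 3 of the 4 CDAHFD-fed WT female libraries were at or under a floor of 3 counts. This was a log2 fold change of -4.15 ± 0.431 (SE) in WT females (adjusted p = 5.86e-07) and -2.71 ± 0.344 in Cyp2b-null females (adjusted p = 6.58e-06). Without replicate 1 of the CDAHFD-fed WT females it was -4.75. Males started lower: Timd4 was at 3.30, 4.96, 4.66 and 2.84 CPM in ND-fed WT and 1.32, 1.45, 0.466 and 0.708 CPM in CDAHFD-fed WT males. ND-fed Cyp2b-null males had 7.55, 5.46, 4.84 and 3.54 CPM, against 1.61, 0.623, 0.664 and 1.43 CPM on CDAHFD. Again the diets did not overlap in either genotype. Log2 fold changes were -2.07 ± 0.417 in WT males (adjusted p = 0.000611) and -2.42 ± 0.390 in Cyp2b-null males (adjusted p = 4.70e-05).

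Cd163 encodes the scavenger receptor for haemoglobin bound to haptoglobin. ND-fed WT females had 27.6, 49.7, 24.2 and 25.3 CPM and CDAHFD-fed WT females 7.42, 2.35, 0.199 and 0.467 CPM. The CDAHFD libraries ranged widely, since replicate 1 held 34 counts and replicate 3 1 count. The values were 29.0, 33.3, 19.5 and 34.7 CPM in ND-fed and 1.003, 0.475, 1.78 and 1.44 CPM in CDAHFD-fed Cyp2b-null females. ND-fed WT males had 15.1, 26.6, 17.8 and 17.5 CPM, and CDAHFD-fed WT males 5.68, 1.04, 0.933 and 2.30 CPM, with replicate 1 again the highest. In Cyp2b-null males the level went from 17.9, 18.2, 10.3 and 8.85 CPM on ND to 2.25, 1.35, 1.16 and 5.52 CPM on CDAHFD. No CDAHFD library reached its ND counterparts in any genotype or sex. By edgeR, Cd163 changed by -3.64 ± 0.486 in WT females (adjusted p = 1.21e-05), -4.57 ± 0.525 in Cyp2b-null females (adjusted p = 1.91e-06), -3.00 ± 0.455 in WT males (adjusted p = 2.96e-05) and -2.61 ± 0.451 in Cyp2b-null males (adjusted p = 0.000103) on the log2 scale. Leaving out replicate 1 of the CDAHFD-fed WT group moved it to -5.04 in females and to -3.76 in males.

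Clec4f, a C-type lectin gene used in mice as the defining Kupffer cell marker, passed the test of diet in no group. It was at 171, 188, 135 and 138 CPM in ND-fed WT females and 129, 133, 100.02 and 69.6 CPM in CDAHFD-fed WT females, where all CDAHFD values were below all ND values. The log2 fold change of -0.53 ± 0.209 missed the threshold (adjusted p = 0.0737). In Cyp2b-null females the ND values of 166, 167, 106 and 159.8 CPM overlapped the CDAHFD values of 143, 94.6, 185 and 128 CPM. Males had 70.7, 73.2, 115 and 55.0 CPM on ND and 62.5, 135, 107 and 100.2 CPM on CDAHFD in WT, and 90.2, 73.5, 77.2 and 63.7 against 116, 65.7, 95.2 and 95.6 CPM in Cyp2b-null mice. The diets overlapped in both male genotypes, with log2 fold changes of 0.36 ± 0.219 (adjusted p = 0.218) and 0.29 ± 0.219 (adjusted p = 0.331). When libraries were scaled by their totals alone, which shifted all genes by 0.37 and 0.36 at the median, Clec4f was called in males at 0.76 in WT and 0.65 in Cyp2b-null mice. Of 16 alternative fits a comparison, that one included, 3 called Clec4f in WT females, 3 in WT males and 1 in Cyp2b-null males. Among these, 1 in WT females and 2 in WT males left out a single library. Its log2 fold change ranged from -0.65 to -0.20 in WT females and from 0.20 to 0.76 in WT males.

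Vsig4, which encodes a complement receptor that captures bacteria from blood, moved in opposite directions in WT females and WT males. WT females had 49.0, 46.2, 40.0 and 28.9 CPM on ND and 32.7, 31.8, 20.7 and 15.1 CPM on CDAHFD, and only ND replicate 4 lay among the CDAHFD values. WT males had 14.3, 11.7, 23.0 and 8.30 CPM on ND and 13.2, 31.0, 29.3 and 23.4 CPM on CDAHFD, with CDAHFD replicate 1 inside the ND range. The log2 fold change was -0.69 ± 0.242 in WT females (adjusted p = 0.0417) and 0.74 ± 0.269 in WT males (adjusted p = 0.0396). In Cyp2b-null mice it was -0.51 ± 0.235 in females, which did not pass (adjusted p = 0.108), and 0.76 ± 0.270 in males (adjusted p = 0.0324). All 3 calls were close to the threshold. The female WT call was lost on leaving out any 1 of ND replicates 1, 2 and 3 or CDAHFD replicates 3 and 4 (adjusted p = 0.0639 to 0.157), the male WT call on leaving out any 1 of ND replicates 1, 2 and 4 or CDAHFD replicates 2, 3 and 4 (0.0601 to 0.124), and the Cyp2b-null male call on leaving out any 1 of ND replicates 3 and 4 or CDAHFD replicates 3 and 4 (0.0652 to 0.123).

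Folr2, the gene of the macrophage folate receptor beta, was at 11.7 to 19.2 CPM in ND-fed and 7.79 to 14.6 CPM in CDAHFD-fed WT females, and at 2.18 to 11.6 and 4.92 to 11.01 CPM in the WT males. Both pairs of ranges overlapped. In Cyp2b-null females the ranges of 9.20 to 20.8 CPM on ND and 12.5 to 23.3 CPM on CDAHFD also overlapped, but in Cyp2b-null males every CDAHFD-fed library (8.52 to 11.2 CPM) was above every ND-fed one (4.55 to 7.96 CPM). Its log2 fold change was -0.51 ± 0.249 in WT females (adjusted p = 0.150), 0.06 ± 0.236 in Cyp2b-null females (adjusted p = 0.878), 0.58 ± 0.340 in WT males (adjusted p = 0.204) and 0.59 ± 0.338 in Cyp2b-null males (adjusted p = 0.182). With scaling by library totals alone, Folr2 was called in males at 0.99 in WT and 0.97 in Cyp2b-null mice. Of 16 alternative fits a comparison, that one included, 2 called Folr2 in WT males and 2 in Cyp2b-null males. In WT males, 1 of these left out a single library.

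Marco encodes a scavenger receptor for bacteria and particles. In males it was scarcely detected on ND, at 2.75, 0.991, 2.88 and 1.31 CPM in WT and 2.55, 2.05, 1.47 and 1.99 CPM in Cyp2b-null mice. On CDAHFD it stood at 24.8, 15.997, 17.5 and 10.1 CPM in WT and 12.9, 13.1, 8.64 and 23.7 CPM in Cyp2b-null males. Every male CDAHFD library was above every ND library. Male log2 fold changes were 3.07 ± 0.362 in WT (adjusted p = 1.35e-06) and 2.77 ± 0.365 in Cyp2b-null males (adjusted p = 4.13e-06). Females already had the higher level on ND, with 15.1, 18.7, 8.40 and 7.05 CPM in WT mice against 25.5, 20.2, 8.95 and 3.12 CPM on CDAHFD. These ranges overlapped, as did those of 10.9 to 19.2 and 8.39 to 31.5 CPM in Cyp2b-null females. Log2 fold changes in females were 0.25 ± 0.467 in WT (adjusted p = 0.750) and 0.40 ± 0.446 in Cyp2b-null mice (adjusted p = 0.529).

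Cd5l, which encodes a secreted scavenger receptor-like protein (also called AIM) that supports macrophage survival and binds lipid droplets, rose in both sexes. Levels in WT females were 145, 194, 93.4 and 118 CPM on ND and 198, 246, 217 and 185 CPM on CDAHFD, which overlapped only through ND replicate 2. In WT males they were 74.9, 59.3, 95.4 and 38.6 CPM on ND and 137, 326, 271 and 241 CPM on CDAHFD, with no overlap. Its log2 fold change was 0.65 ± 0.201 in WT females (adjusted p = 0.0224), 0.88 ± 0.201 in Cyp2b-null females (adjusted p = 0.00224), 1.86 ± 0.243 in WT males (adjusted p = 4.79e-06) and 1.98 ± 0.244 in Cyp2b-null males (adjusted p = 1.73e-06). The call in WT females was lost without ND replicate 3 or 4 or CDAHFD replicate 2 (adjusted p = 0.0733 to 0.086).

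Among the general macrophage genes, Cd68, which encodes a lysosomal glycoprotein abundant in phagocytes, rose most. WT females had 9.13, 12.6, 7.73 and 7.40 CPM on ND and 35.4, 53.2, 59.9 and 55.2 CPM on CDAHFD, and WT males 4.22, 2.97, 7.12 and 3.93 CPM and 35.4, 64.4, 81.4 and 60.7 CPM. Cyp2b-null females went from 11.5, 12.3, 4.98 and 11.02 to 46.4, 51.3, 65.4 and 42.5 CPM and Cyp2b-null males from 4.55, 3.87, 5.68 and 3.10 to 61.1, 54.2, 91.9 and 69.98 CPM. The diets were far apart in all groups. Cd68 rose by 2.52 ± 0.232 in WT females (adjusted p = 1.28e-07), 2.35 ± 0.225 in Cyp2b-null females (adjusted p = 2.18e-07), 3.70 ± 0.272 in WT males (adjusted p = 3.16e-09) and 4.00 ± 0.277 in Cyp2b-null males (adjusted p = 1.31e-09) on the log2 scale.

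Adgre1, the gene of the F4/80 antigen, was at 26.0, 30.6, 25.5 and 18.6 CPM in ND-fed and 38.2, 37.9, 57.3 and 38.6 CPM in CDAHFD-fed WT females. WT males had 15.6, 16.03, 19.3 and 10.7 CPM on ND and 30.1, 71.9, 70.9 and 58.1 CPM on CDAHFD, where replicate 1 was well below the other CDAHFD libraries but above all ND libraries. Adgre1 had a log2 fold change of 0.82 ± 0.171 in WT females (adjusted p = 0.00124), 0.83 ± 0.169 in Cyp2b-null females (adjusted p = 0.00088), 1.90 ± 0.251 in WT males (adjusted p = 5.68e-06) and 2.33 ± 0.259 in Cyp2b-null males (adjusted p = 4.81e-07). Csf1r encodes the receptor for the growth factors CSF1 and IL-34 on which macrophages depend. Its level went from 78.0, 90.1, 45.3 and 59.7 to 94.8, 104, 102 and 95.5 CPM in WT females and from 34.1, 40.5, 50.6 and 37.8 to 81.9, 145, 151 and 142 CPM in WT males, without overlap. The log2 fold change of Csf1r was 0.56 ± 0.186 in WT females (adjusted p = 0.0306), 0.50 ± 0.185 in Cyp2b-null females (adjusted p = 0.0432), 1.67 ± 0.194 in WT males (adjusted p = 1.09e-06) and 2.01 ± 0.197 in Cyp2b-null males (adjusted p = 8.97e-08). The female calls of Csf1r were lost on leaving out any 1 of ND replicates 3 and 4 or CDAHFD replicates 2, 3 and 4 in WT (adjusted p = 0.0523 to 0.115), and on leaving out any 1 of ND replicates 2 and 3 or of the CDAHFD replicates in Cyp2b-null mice (0.052 to 0.153).

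**Figure D2:**
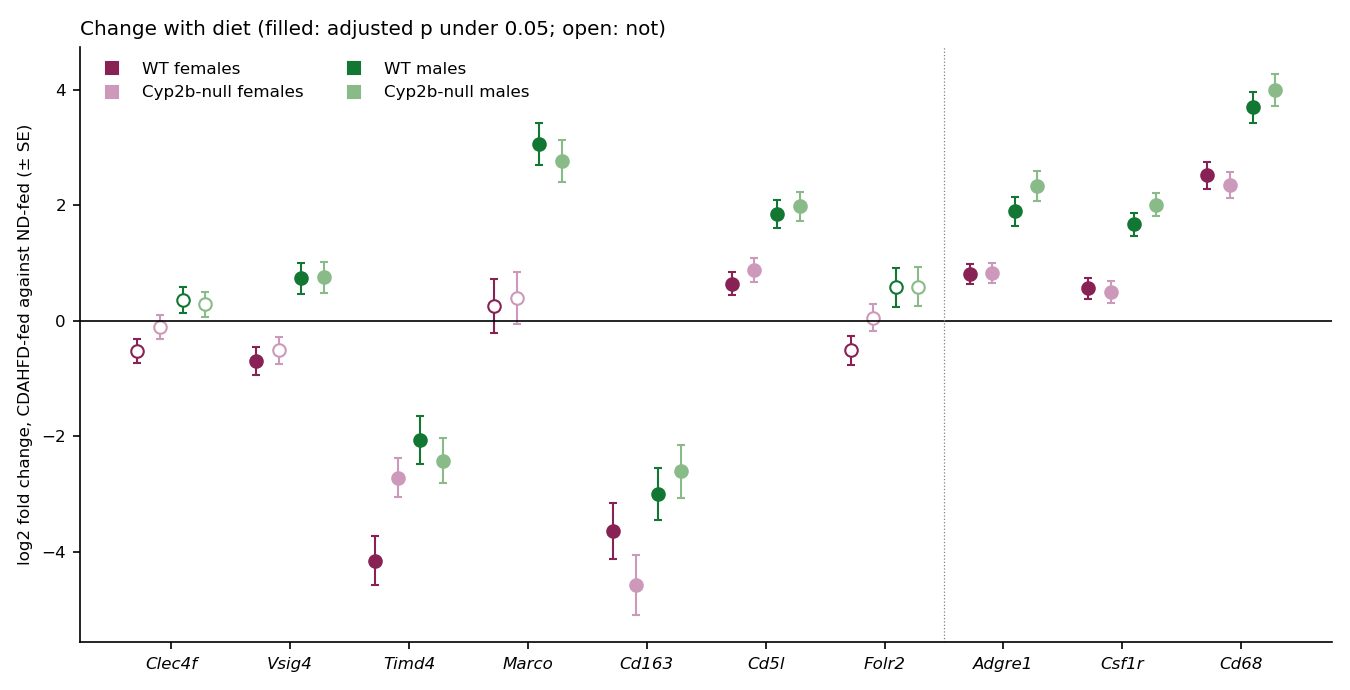
Log2 fold change of each member, CDAHFD-fed against ND-fed, in the 4 comparisons. Points are edgeR estimates with their standard errors, filled where the adjusted p was under 0.05, and a dotted line separates the resident markers from the general macrophage genes. Timd4 and Cd163 lie below 0 in every comparison, between -4.57 and -2.07, Cd68 lies between 2.35 and 4.00, and Marco is filled in males only.

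A separate question was whether the resident markers moved with the macrophage signal of the same library. Each resident marker's count was divided by that of Adgre1 in the same library, and the log2 ratios were compared between diets with an exact two-sided permutation test. Such a ratio is free of library scaling and shows unequal change of the members of a pair, without saying which of them moved. Relative to Adgre1, Clec4f, Vsig4, Timd4 and Cd163 were lower on CDAHFD in all 4 comparisons. Of 28 ratio tests, 20 were lower and 0 higher on CDAHFD at p = 0.0286, the smallest value that 4 against 4 libraries allow, with an adjusted p of 0.04 over the 28 exact tests. All 28 tests share the denominator Adgre1, which itself rose without overlap in all 4 comparisons. A gene that the diet left unchanged would therefore tend to a lower ratio as well. How many of all genes had a lower ratio was not tested. By comparison, 5 of the 7 markers were lower in WT females, 4 in Cyp2b-null females, 5 in WT males and 6 in Cyp2b-null males.

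Clec4f counts were 5.26 to 7.41 times those of Adgre1 in ND-fed WT females and 1.75 to 3.51 times in CDAHFD-fed WT females. In WT males they were 4.51 to 5.93 times on ND and 1.505 to 2.07 times on CDAHFD. Clec4f therefore separated the diets fully as a ratio although its level passed no test of diet in the main fits. Adgre1 alone also separated them fully. In WT males Adgre1 rose by 1.90 on the log2 scale, where the Clec4f level differed by 0.36 and was not called. The lower ratio in WT males is thus not a fall of the Clec4f level. The fall of the geometric mean ratio of Clec4f was 2.55-fold in WT females, 1.92-fold in Cyp2b-null females, 2.80-fold in WT males and 4.15-fold in Cyp2b-null males. For Vsig4 it was 2.87-fold, 2.42-fold, 2.10-fold and 3.03-fold in the same order, so that the ratio was lower in males too, where the Vsig4 level rose. Cd163 had a median ratio to Adgre1 of 1.21 in ND-fed and 0.0396 in CDAHFD-fed WT females, and of 1.30 and 0.0285 in the WT males. Its fall was 39.2-fold, 43.3-fold, 34.2-fold and 30.5-fold in the same order of groups, and that of Timd4 36.5-fold, 12.2-fold, 14.5-fold and 25.0-fold. With few counts in CDAHFD-fed WT females, the Timd4 log2 ratio difference there was -5.19 and moved to -5.89 with 0.1 in place of 0.5 added to each count and to -4.33 without CDAHFD replicate 3. In the same group the Cd163 difference of -5.29 became -6.18 without CDAHFD replicate 1 and -4.43 without CDAHFD replicate 3, and in WT males -5.10 became -5.90 without CDAHFD replicate 1.

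Folr2 fell against Adgre1 by 1.31 on the log2 scale in WT females, by 1.07 in WT males and by 1.75 in Cyp2b-null males, while its difference of -0.72 in Cyp2b-null females did not pass (exact permutation p = 0.0571). Cd5l stayed closest to Adgre1. Its log2 ratio differed by -0.10 in WT females, 0.06 in Cyp2b-null females and 0.02 in WT males, none of which passed, and was lower by 0.35 in Cyp2b-null males. Marco passed in no comparison, with log2 ratio differences of -0.82 and -0.58 in WT and Cyp2b-null females and 1.26 and 0.39 in the males.

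**Figure D3:**
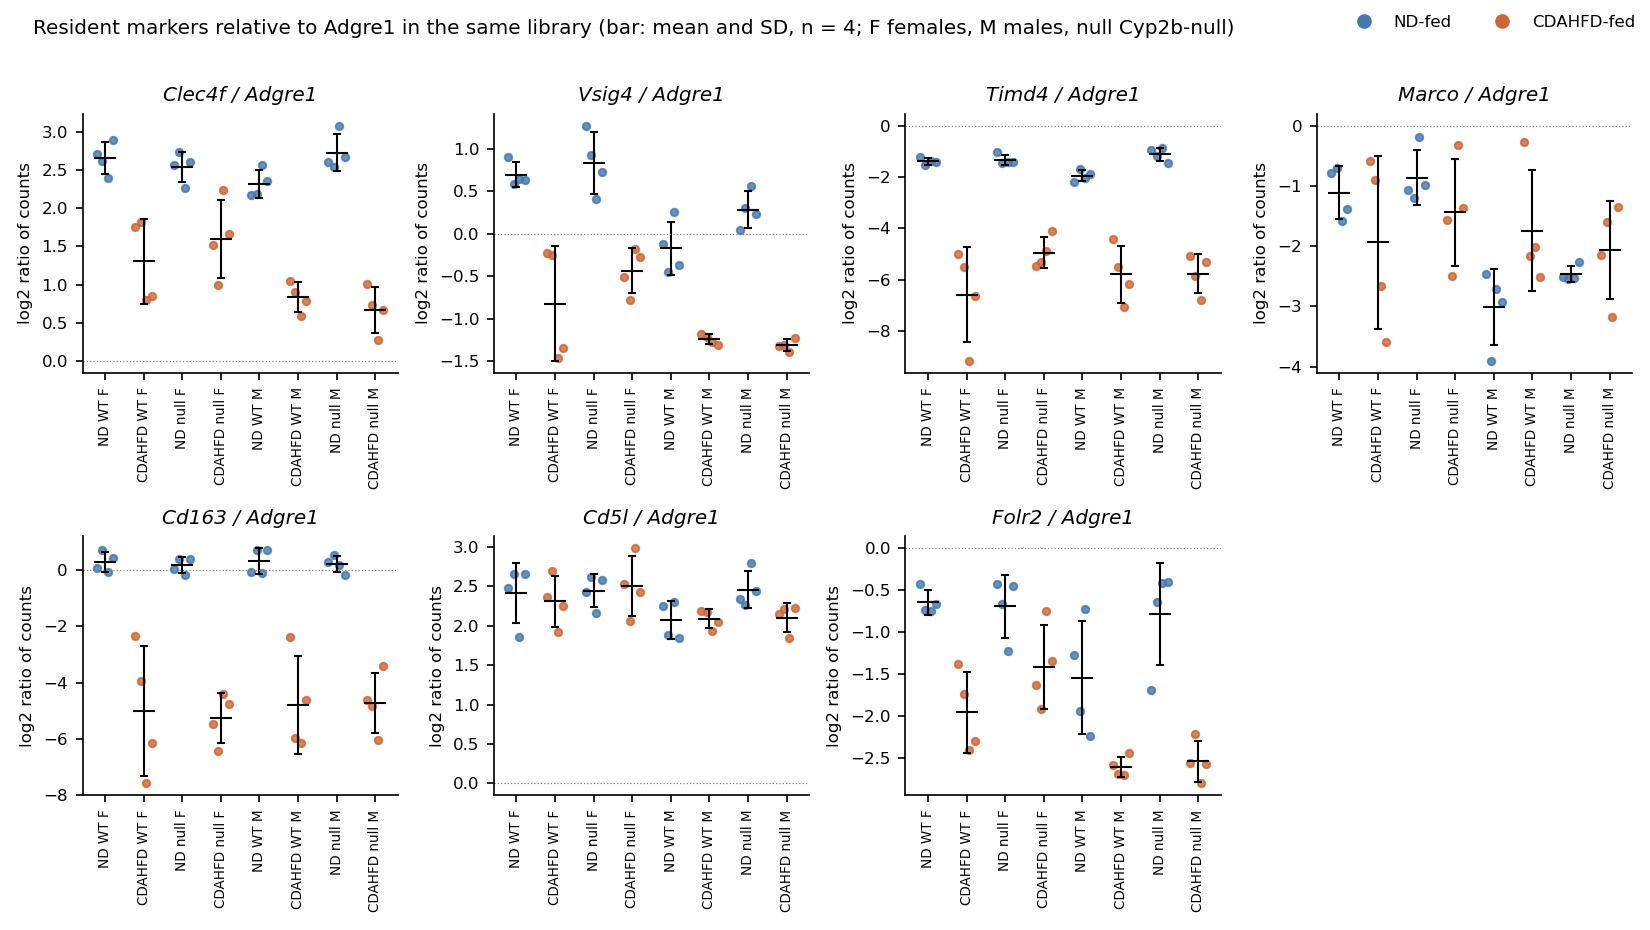
Log2 ratio of each resident marker's count to the Adgre1 count in every library, by diet, genotype and sex. Points are libraries, bars are the mean and SD of 4 libraries, and a dotted line marks equal counts. Clec4f, Vsig4, Timd4 and Cd163 lie lower on CDAHFD without overlap in all 4 comparisons, whereas Cd5l ratios overlap in females and WT males.

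Sex differences were examined in a fit to all 32 libraries. Males had less of almost every member on ND, and larger folds on CDAHFD for part of the set. In ND-fed WT mice 9 members were lower in males and 0 higher, where 9.45% of 14020 genes were lower and 8.35% higher. This and the other comparisons of males with females within a diet and genotype were added after the data were seen. Marco differed most, at 1.98 ± 0.971 CPM in males against 12.3 ± 5.53 CPM in females (SD, n = 4), a log2 fold change of -2.56 ± 0.527 (adjusted p = 0.000885). The log2 fold change was -1.48 ± 0.278 for Vsig4 (adjusted p = 0.000284), -1.34 ± 0.316 for Folr2, -1.24 ± 0.325 for Timd4, -1.03 ± 0.239 for Cd5l and -1.01 ± 0.232 for Clec4f. For the general genes the log2 fold changes were -0.94 ± 0.309 for Cd68, -0.74 ± 0.202 for Csf1r and -0.67 ± 0.236 for Adgre1. Cd163 did not pass (-0.70 ± 0.404, adjusted p = 0.242). The Adgre1 call was lost on leaving out any 1 of female replicates 1, 2 and 3 or male replicates 1, 2 and 4 (adjusted p = 0.0684 to 0.145), that of Cd68 on leaving out any 1 of female replicates 1 and 2 or male replicates 1, 2 and 4 (0.0606 to 0.119), and that of Csf1r without female replicate 2 (0.0521). Genes of other lists, some of them markers of other cell types, were also lower in ND-fed males. Over all genes, 9.45% were lower in WT and 7.13% in Cyp2b-null males. Of 12 general leukocyte and macrophage genes, 8 were lower in WT and 9 in Cyp2b-null males, with summed levels of 149 to 211 CPM in WT males against 270.0 to 378 CPM in WT females. Stellate cell markers were lower for 2 of 5 in each genotype, summing to 154 to 248 CPM in WT males against 364 to 468 CPM in WT females. Sinusoidal endothelial markers were lower for 1 of 7 in WT and 6 of 7 in Cyp2b-null males, with sums of 165 to 225 CPM in Cyp2b-null males against 274 to 346 CPM in Cyp2b-null females. Monocyte and hepatocyte markers were each lower for 1 of 5 in both genotypes. Their part in the sex differences of the members was not tested.

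ND-fed Cyp2b-null mice gave 8 members lower and 0 higher in males, against 7.13% lower and 6.13% higher of all genes, with Timd4 (-0.88 ± 0.314, adjusted p = 0.0573) and Cd163 (-1.08 ± 0.413, adjusted p = 0.0784) outside the threshold. Marco was again the most different, with a log2 fold change of -2.72 ± 0.523. On CDAHFD 0 members passed in WT mice, where 5.91% of all genes were higher and 5.12% lower in males, and log2 fold changes lay between -0.23 and 0.87. In CDAHFD-fed Cyp2b-null mice 0 passed as well (9.06% higher and 9.05% lower of all genes), with log2 fold changes between -0.78 and 0.90. In these edgeR tests, 0 members in WT and 3 in Cyp2b-null mice had an unadjusted p under 0.05, where 3665 and 4574 of 14020 genes did. DESeq2 called 0 and 1 members. The median summed level of the 7 resident markers was 387 CPM in ND-fed WT females and 383 CPM in CDAHFD-fed WT females, but 184 and 412 CPM in the WT males. For the 3 general genes the medians were 99.4 and 192 CPM in WT females and 56.7 and 271 CPM in WT males.

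The difference of the diet effect between the sexes was then tested itself. Its sign was toward a higher CDAHFD-to-ND fold in males for all 10 members in both genotypes, from 0.66 to 2.83 in WT and from 0.31 to 2.38 in Cyp2b-null mice on the log2 scale. Over all genes tested the median was 0.03 in each genotype. This difference equals the male-to-female difference on CDAHFD minus that on ND. It rests on the same ND libraries, in which all 10 members had lower estimates in males. The shared sign is therefore not separate from the ND result. In WT mice 2 members passed, Marco (2.83 ± 0.669, adjusted p = 0.0271) and Csf1r (1.13 ± 0.279, adjusted p = 0.0370), against 0.970% of all genes. In Cyp2b-null mice 4 passed, against 3.40%: Marco (2.38 ± 0.661, adjusted p = 0.0369), Adgre1 (1.53 ± 0.319, adjusted p = 0.00581), Csf1r (1.53 ± 0.280, adjusted p = 0.00152) and Cd68 (1.67 ± 0.377, adjusted p = 0.00986). Vsig4 lay just outside in both genotypes, at 1.45 ± 0.387 (adjusted p = 0.0622) and 1.28 ± 0.381 (adjusted p = 0.0528), and so did Cd5l, at 1.23 ± 0.333 (adjusted p = 0.0663) and 1.12 ± 0.332 (adjusted p = 0.0515). Several calls were fragile. Marco in WT mice was lost on leaving out any 1 of ND-fed female replicates 1 and 2, CDAHFD-fed female replicate 3 or ND-fed male replicates 2 and 4 (adjusted p = 0.0591 to 0.0865), Csf1r in WT mice in 12 of 16 fits that each left out a library (0.0563 to 0.102; it was kept only without ND-fed female replicates 3 or 4, ND-fed male replicate 3 or CDAHFD-fed male replicate 1), and Marco in Cyp2b-null mice in 10 of 16 (0.0515 to 0.0862; kept only without ND-fed female replicate 2, CDAHFD-fed female replicate 3, ND-fed male replicate 1 or CDAHFD-fed male replicates 1, 2 or 3).

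**Figure D4:**
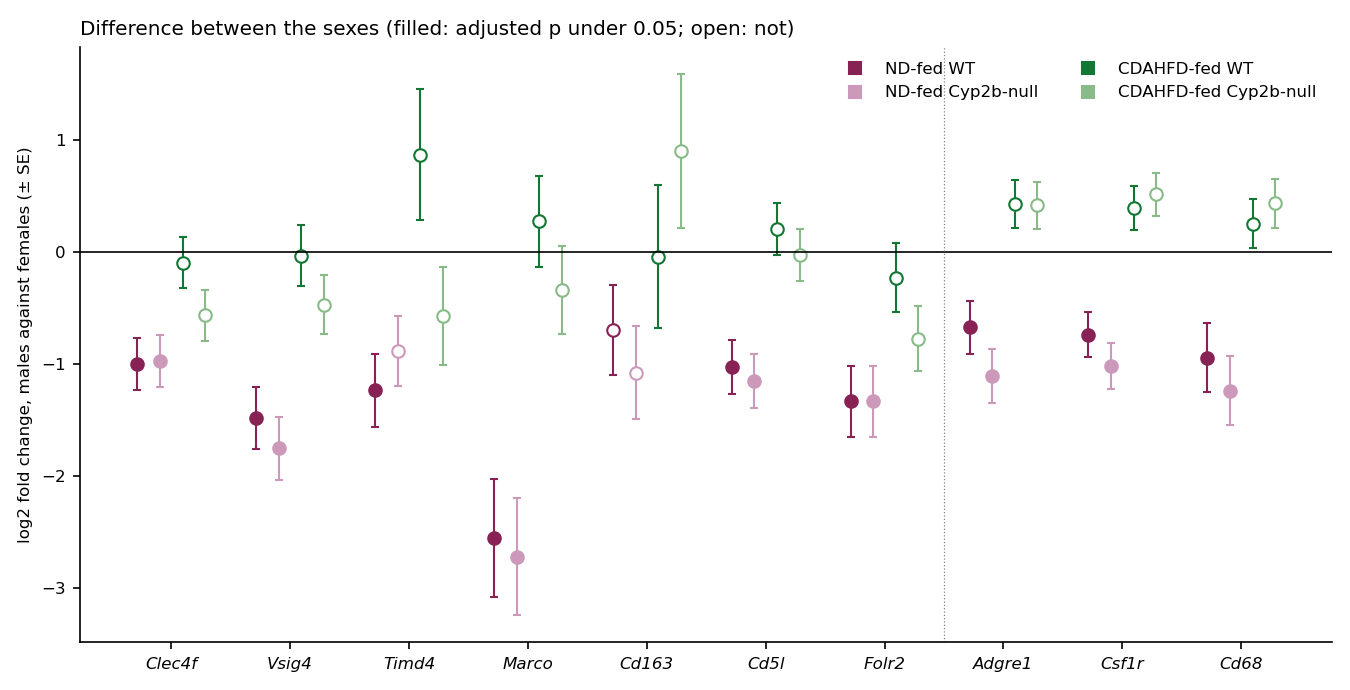
Log2 fold change of each member in males against females, on ND and on CDAHFD, in WT and Cyp2b-null mice. Points are edgeR estimates with their standard errors, filled where the adjusted p was under 0.05. ND values lie below 0 for all 10 members, from -2.72 to -0.67, and no CDAHFD value is filled.

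Loss of the Cyp2b genes was compared with WT on each diet within each sex. No member passed in any of these edgeR comparisons or in the test of whether the diet effect differed between genotypes, and DESeq2 called 0 in each as well. On ND the log2 fold changes of the members lay between -0.08 and 0.21 in females, where 0.0756% of all genes passed, and between -0.47 and 0.45 in males, where 0.0371% passed. In both, 0 members had an unadjusted p under 0.05, where 760 of 13226 genes in females and 1112 of 13460 in males did. On CDAHFD the log2 fold changes of the members lay between -1.02 and 1.54 in females and between -0.26 and 0.19 in males. Of all genes, 0.0227% and 0.0297% passed. An unadjusted p under 0.05 was reached by 771 of 13226 genes in females and 487 of 13460 in males, and by 2 and 0 members. Those 2 were Timd4, at 1.41 ± 0.592 CPM in Cyp2b-null against 0.527 ± 0.474 CPM in WT females (log2 fold change 1.54 ± 0.531, adjusted p = 0.826), and Folr2, at 16.9 ± 4.56 against 11.1 ± 2.80 CPM (0.62 ± 0.240, adjusted p = 0.826). For the interaction of diet and genotype, 0% of genes passed in females and 0.00743% in males. An unadjusted p under 0.05 was reached by 830 of 13226 and 817 of 13460 genes, and by 1 and 0 members.

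Other genes of the Kupffer cell were taken from lists chosen with earlier results known. Of 14 further Kupffer cell genes, 8 rose and 2 fell in WT females, where 13.9% of all genes rose and 10.2% fell. In WT males 9 rose and 1 fell, against 18% and 15% of all genes. The counts that fell were near or under those shares. Median log2 fold changes over the 14 were 0.87 and 1.23. C1qa, a subunit of the complement component C1q, rose by 0.98 ± 0.215 in WT females and 2.05 ± 0.314 in WT males. Clec1b, the gene of the platelet receptor CLEC-2 that Kupffer cells also carry, rose in WT males (1.36 ± 0.229) and did not pass in WT females (0.55 ± 0.227, adjusted p = 0.0837). Fcna, which encodes the lectin ficolin A, fell in WT females (-1.41 ± 0.239, adjusted p = 0.000163), and in WT males it did not pass (-0.31 ± 0.267, adjusted p = 0.400). Fabp7, a fatty acid-binding protein gene, rose most in WT males at 2.91 ± 0.322. C6, a terminal complement gene, rose in WT females (2.27 ± 0.304) and fell in WT males (-0.57 ± 0.194, adjusted p = 0.0277).

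Of 12 transcription factors of Kupffer cells, 2 rose and 1 fell in WT females and 6 rose and 0 fell in WT males. The female counts were close to the shares over all genes (13.9% higher and 10.2% lower). In WT males these shares were 18% higher and 15% lower. Spi1 rose from 8.52 to 26.6 CPM in WT females (log2 fold change 1.67 ± 0.188) and from 4.24 to 25.6 CPM in WT males (2.57 ± 0.276). Nr1h3, which encodes the Kupffer cell identity factor LXR-alpha and is also expressed by hepatocytes, had log2 fold changes of -0.12 ± 0.123 and -0.06 ± 0.119, and Id3 of 0.37 ± 0.302 and -0.03 ± 0.288, none of which passed. Spic, a factor of iron-recycling macrophages, rose in WT males (1.76 ± 0.510, adjusted p = 0.0109) and not detectably in WT females (0.50 ± 0.404, adjusted p = 0.417). Smad4 had the lowest value in WT males (-0.09 ± 0.138, adjusted p = 0.656).

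Of 8 tested genes in a list of CSF1R ligands, other growth factor receptors and niche signals, 5 rose in WT females and 7 in WT males, with 0 lower. Of all genes, 13.9% rose and 10.2% fell in WT females, and 18% and 15% in WT males. Csf1 rose by 1.08 ± 0.214 and 1.06 ± 0.223 on the log2 scale in WT females and males. Il34 rose in WT males (1.28 ± 0.425, adjusted p = 0.0241) and did not pass in WT females (0.54 ± 0.412, adjusted p = 0.384). Csf2ra, a subunit of the GM-CSF receptor, had the largest rise in both (2.24 ± 0.275 and 3.79 ± 0.292), and the Notch ligand gene Dll4 the lowest value (-0.49 ± 0.323 and -0.45 ± 0.394, neither passing).

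Genes of other myeloid cells moved with the diet in the same libraries, where 13.9% of all genes rose in WT females and 18% in WT males. All 9 recruited monocyte genes tested in WT females and all 10 in WT males rose, with medians of 3.63 and 4.34, and Ccr2, the chemokine receptor of inflammatory monocytes, rose by 3.63 ± 0.356 and 4.59 ± 0.349. Chil3 was listed at 0 in all 4 ND-fed WT female libraries and averaged 3.47 CPM in CDAHFD-fed WT females. Itgam, the gene of CD11b, rose most in WT males (5.39 ± 0.379) and Plac8 least in both sexes (1.35 ± 0.250 and 2.19 ± 0.258). Of 8 lipid-associated macrophage genes tested, 7 rose in each sex, with Gpnmb going from 0.234 to 201 CPM in WT females and from 0.109 to 406 CPM in WT males, while Fabp5 did not pass (-0.61 ± 0.395 and 0.51 ± 0.475). Trem2 was listed at 0 in all 32 libraries. Of 12 general leukocyte and macrophage genes, 11 rose in WT females and 12 in WT males, led by Cd14 (3.05 ± 0.352) and Lyz2 (4.34 ± 0.328), with the efferocytosis receptor gene Mertk lowest (0.07 ± 0.212 and 0.59 ± 0.202).

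The summed level of the monocyte markers Ccr2, Chil3, F13a1, Ly6c2 and Plac8 was 7.05 to 10.9 CPM in ND-fed and 28.2 to 51.3 CPM in CDAHFD-fed WT females, and 2.97 to 5.75 and 27.8 to 43.0 CPM in WT males. All that were tested rose, 4 in females and 5 in males. Over all genes, 13.9% rose and 10.2% fell in WT females, and 18% rose and 15% fell in WT males. Summed hepatocyte markers went from 126186 to 185790 CPM on ND to 72796 to 99641 CPM on CDAHFD in WT females and from 112344 to 128335 CPM to 55905 to 100466 CPM in WT males, with 4 of 5 and 5 of 5 lower. Sinusoidal endothelial markers fell for 4 of 7 in WT females (summed 268 to 335 CPM on ND and 177 to 243 CPM on CDAHFD). In WT males 1 rose and 2 fell, near the shares over all genes. Both neutrophil markers that were tested rose in each sex. None of the tested markers of B cells or peritoneal macrophages passed in WT mice, and the adipocyte markers Adipoq, Lep and Plin1 summed to at most 0.682 CPM in any library. Monocyte and hepatocyte markers moved in every diet comparison of the members above, and their part in those results was not tested.

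**Figure D5:**
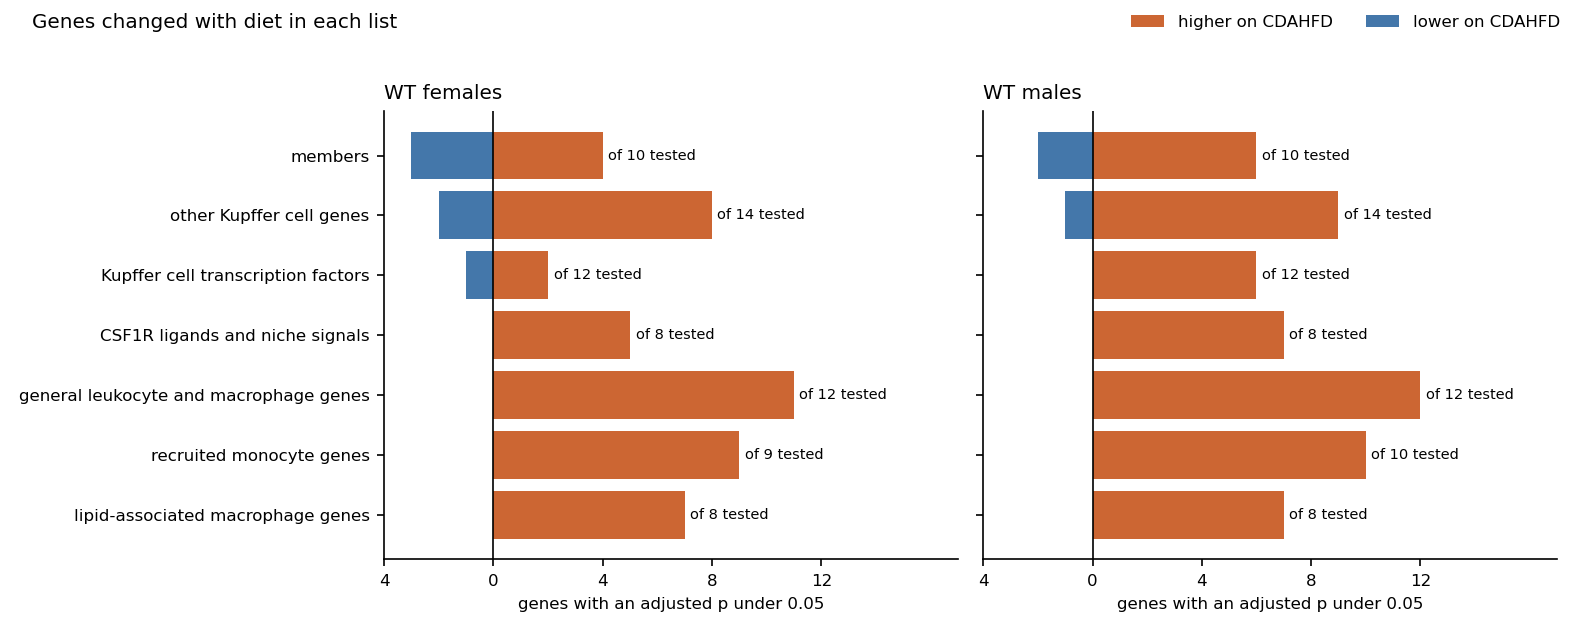
Number of genes higher (right of 0) and lower (left of 0) on CDAHFD at an adjusted p under 0.05 in each list, in WT females and WT males, with the number tested beside each bar. All 9 and 10 recruited monocyte genes tested are on the higher side, and the 10 members divide into 4 higher and 3 lower in females and 6 higher and 2 lower in males. Of all genes, 13.9% were higher and 10.2% lower in females, and 18% and 15% in males.

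Patterns across libraries set the members apart from each other. By Pearson correlation of log2 CPM, averaged over the 16 female and the 16 male libraries, the genes most like Timd4 were Ces1d, Aldh8a1, Cnbp, Cyp3a25 and Cyp2c29 (mean r from 0.92 to 0.94), of which Ces1d, Aldh8a1, Cyp3a25 and Cyp2c29 are genes of hepatocyte metabolism. Those most like Cd68 were Psap, Ctss, Ucp2, Itgb2 and Cyba (0.98 to 0.99), genes of lysosomes and phagocytes among them. Clec4f had no close match, its nearest genes being Tspan7, Cfp, Trp53i11, Gimap4 and Fam174b (0.64 to 0.73). The points of each correlation share the diet contrast, which separates the libraries, and the values are a description.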

How the data were processed

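Liver RNA was sequenced in 32 libraries, 4 in each of 8 groups taken from the sample labels. Per the labels and the study's methods, the authors trimmed paired reads with Trimmomatic, aligned them to GRCm38.p6 with GSNAP and counted them per gene with featureCounts of Subread; versions and the strand setting are not given in the sources used here. The authors deposited raw read counts, 1 table for each sex, without normalization. Totals of 2906411 to 10166959 counts set a floor of 3 counts a library, 0.295 to 1.03 CPM. The 10 members and all lists were chosen with earlier results of these data known, and every member is named. In R 4.3.3, edgeR 4.0.16 filtered genes (filterByExpr, minimum count 10 and total 15), scaled by TMM and fitted a quasi-likelihood model to the 4 groups of each sex (13226 genes in females, 13460 in males) or to all 32 libraries (14020 genes) for sex contrasts, and p-values were adjusted by Benjamini-Hochberg over all genes. From each related list, the genes with the largest and smallest diet effect in WT mice are named, besides those fixed by name; 1 such gene is not reported here. Ratios to Adgre1 used counts plus 0.5. Levels per kb used the union of GENCODE exons. The edgeR fit of each sex was tested on simulated counts with known diet changes in WT mice. The other contrasts were not simulated. Alternatives were DESeq2 1.42.0, scaling by library size alone, other filters, fits to the groups compared, a replicate block, the libraries of the study's heat maps (15 a sex), and leaving out each library.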

Additional observations from a re-analysis of the deposited data

Results flagged for a closer look

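In 6 of 80 checks of a member in a group of 4 libraries, 1 library stood apart from the other 3 by Dixon's criterion, which chance alone meets in about 1 in 20 groups. Replicate 3 of the ND-fed Cyp2b-null females, which had the lowest total count of all libraries, was lowest for Clec4f (106 CPM) and Cd5l (98.1 CPM). Replicate 1 of the CDAHFD-fed WT males was lowest for Folr2 (4.92 CPM) and Csf1r (81.9 CPM). Replicate 2 of the ND-fed WT females was highest for Cd163 (49.7 CPM), and replicate 3 of the CDAHFD-fed WT females was highest for Adgre1 (57.3 CPM).

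The diet effect differed between males and females by its own test for Marco (2.83 in WT and 2.38 in Cyp2b-null mice, log2, males minus females) and Csf1r (1.13 and 1.53). In Cyp2b-null mice it also differed for Cd68 (1.67) and Adgre1 (1.53).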

How the results depend on the processing

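Counts of members called for diet were 7, 6, 8 and 8 in WT females, Cyp2b-null females, WT males and Cyp2b-null males, and ranged over 6 to 8, 5 to 7, 7 to 10 and 7 to 10 under the alternatives. Leaving out each library gave 4 to 7, 5 to 6, 7 to 10 and 7 to 8, with 4 in WT females without ND replicate 3. Genotype and interaction counts stayed at 0 in every fit. Counts for the sex difference of the diet effect depended more on the settings. In WT mice the count of 2 became 5 with DESeq2, 7 without a filter, 3 with the replicate block and 0 when only the groups compared were fitted, and 0 to 6 when a library was left out. In Cyp2b-null mice the 4 became 7 without a filter and 3 to 6 when a library was left out. For CDAHFD-fed males against females, the 0 in Cyp2b-null mice became 1 with DESeq2, 3 without a filter and 1 with only the groups compared, and 0 to 2 when a library was left out, and the 0 in WT mice became 0 to 1. Sex counts on ND were 6 to 10 in WT (9) and 8 to 10 in Cyp2b-null mice (8). The causes were not tested.

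Scaling by library size alone moved the median log2 fold change of all genes by 0.32, 0.28, 0.37 and 0.36 in the 4 diet comparisons. Under it Clec4f in Cyp2b-null females stood at 0.14, which is below the shift of all genes, and Vsig4 in WT females at -0.37, no longer called. Reversed signs were seen only for values that were not called in the report. When a library was left out, Clec4f in Cyp2b-null females ranged from -0.27 to 0.041 (reversed without CDAHFD replicate 2), Folr2 there from -0.13 to 0.18 (reversed without CDAHFD replicate 3, and at -0.11 without ND replicate 3), Marco in WT females from -0.19 to 0.62 (reversed without CDAHFD replicate 1), and the sex difference of Cd163 in WT mice from -0.11 to 2.06 (reversed without CDAHFD-fed male replicate 1). Folr2 in Cyp2b-null females was also at -0.13 without the libraries that the heat maps left out. With Cd68, which rose more than Adgre1 in all 4 diet comparisons, in place of Adgre1, 26 of 28 ratios were lower. Marco then reversed to -0.60 in WT and -1.27 in Cyp2b-null males and Cd5l to -1.55 in Cyp2b-null females and -1.85 in WT males. Of the other fold changes outside the fits that left out a library, 614 kept direction and side, 33 passed newly and 6 were lost. In the fits that left out a library, 720 kept both, 23 passed newly, 68 were lost and 5 reversed. Timd4 between genotypes on CDAHFD could not be fitted when only the groups compared were used, since it did not pass the filter there.

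Same-numbered libraries did not deviate together (correlations of -0.101 to 0.157 in females and -0.181 to 0.285 in males, 5 and 6 of 16 libraries correlating best with their own number), so the numbers were not taken to pair libraries. With the replicate block, 7, 6, 8 and 8 members were called for diet. The ratio tests cannot pass with a block (smallest exact permutation p 0.125) or with a library left out, so these say nothing about the ratios. Levels of Timd4 and Cd163 on CDAHFD rest on few counts, which limits the size of their folds more than their direction.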

Other observations

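Within the 10 members, the summed level ranged from 404 to 659 CPM in ND-fed and 471 to 641 CPM in CDAHFD-fed WT females, and from 178 to 347 and 397 to 802 CPM in WT males. In Cyp2b-null mice the sums were 363 to 588 and 531 to 791 CPM in females, and 192 to 270.0 and 487 to 776 CPM in males. C6 was the gene in the list of related Kupffer cell genes whose diet effect had opposite signs in the sexes in both genotypes. It rose by 1.92 ± 0.300 (log2 ± SE) in Cyp2b-null females and fell by 0.74 ± 0.194 in Cyp2b-null males. Its ND levels were 15.5 CPM in Cyp2b-null females and 328 CPM in Cyp2b-null males. Of the 14 genes of that list, C6 was the 1 higher in ND-fed Cyp2b-null males than females, where 10 were lower. Over all genes 6.13% were higher and 7.13% lower. RNA from whole liver does not show which cells carried it. C6 was singled out after its values were seen. The diet effect on C6 in males minus that in females was -2.81 ± 0.379 on the log2 scale in WT (edgeR adjusted p = 2.49e-05) and -2.64 ± 0.376 in Cyp2b-null mice (adjusted p = 7.35e-05).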
